A study of Mus musculus with 8 samples.

Results

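The collagen gene family in mouse dorsal skin is described here across wild-type and Tph1 knockout libraries. Its members were chosen by a rule on the name, with earlier results of these data known. The rule takes every gene whose symbol is Col, a number, the letter a and a number, except Col17a1. This rule found 43 of the 55488 genes in the deposited tables. By the protein each one encodes, 11 are fibrillar, 9 belong to basement membranes, 9 are FACIT (fibril-associated collagens with interrupted triple helices), 6 are type VI and 8 are others. The groups were dorsal skin of wild-type mice aged 3 months and dorsal skin of their TPH1 knockout counterparts, with 4 bulk RNA-seq libraries of each genotype. Tph1 encodes the enzyme that starts serotonin synthesis outside the brain, and the series asks how peripheral serotonin bears on the epidermis and the dermis. The labels name no strain, sex, allele or batch, and do not say whether the deletion acts in all cells. Nor do they state that libraries of a group are separate mice, and p-values refer to the spread among libraries only.

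Collagen chains coil around one another into a triple helix, and each collagen type has its own set of chains. In skin, dermal fibroblasts secrete the fibrillar types I, III and V that give the dermis its tensile strength, while type VI forms beaded microfibrils around cells. Type IV chains form the sheet of the basement membrane, and type VII anchors that sheet under the epidermis to the dermal fibrils. FACIT chains sit on the surface of fibrils or at tissue interfaces.

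Of the 43 members, 35 had enough counts to be tested between genotypes, and none of the 35 was called changed in knockout skin (edgeR quasi-likelihood test, adjusted p under 0.05), against 0.651% of all genes tested (0.118% called higher and 0.532% called lower). DESeq2 called none of the 33 members to which it gave an adjusted p, and limma voom none of the 35, where they called 5.95% and 0.586% of all genes. At an unadjusted p under 0.05 there were 2 members by edgeR, Col4a5 and Col22a1, or 5.71% of the 35 tested against 17.6% of all genes tested. None of the 35 had its knockout libraries all on one side of its wild-type libraries, whereas 11.0% of all tested genes did. With all 8 libraries the family was evenly split around no change, with 18 members higher and 17 lower in knockout. Its median log2 fold change was 0.00, beside 0.03 over all genes. Without wild type replicate 1, 28 members were higher and 7 lower, with a median of 0.13. With knockout replicate 3 also left out, the median was 0.03. The negative fibrillar and type VI values shrank or turned without 1 library, wild type replicate 1, and are given with and without it.

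The promoters of a few members whose levels are followed in detail are printed. Windows that overlap an annotated exon were left out, among them those of Col1a2, Col6a1, Col16a1 and Col4a5, and that of Col4a6 is not shown. Printed are Col3a1, Col5a1 and Col6a3 from the dermal group that stood highest in wild type replicate 1, Col7a1 from the epidermal junction, and the stretch shared by the head-to-head pair Col4a4 and Col4a3. Each of the first 4 is the 250 bases before the RefSeq gene start on build GRCm38.p6, 5′ to 3′ on the strand of the gene, ending just before the annotated transcript. Capitals mark matches on either strand to 3 motifs: the TATA box TATAAA (reverse TTTATA), the GC box GGGCGG (reverse CCGCCC) and the CCAAT box CCAAT (reverse ATTGG), which do not overlap in these windows.
Col3a1, chr1:45311288-45311537, plus strand: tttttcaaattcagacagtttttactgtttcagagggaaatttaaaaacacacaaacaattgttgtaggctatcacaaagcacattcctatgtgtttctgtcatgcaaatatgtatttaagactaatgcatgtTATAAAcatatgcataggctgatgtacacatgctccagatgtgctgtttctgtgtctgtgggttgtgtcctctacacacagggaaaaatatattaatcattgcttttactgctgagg
Col5a1, chr2:27886175-27886424, plus strand: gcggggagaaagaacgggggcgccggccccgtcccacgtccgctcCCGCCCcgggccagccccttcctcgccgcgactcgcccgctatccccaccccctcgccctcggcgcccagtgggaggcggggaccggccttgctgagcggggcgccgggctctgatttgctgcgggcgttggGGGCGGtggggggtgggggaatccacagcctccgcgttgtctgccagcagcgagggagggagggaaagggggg
Col6a3, chr1:90843972-90844221, minus strand: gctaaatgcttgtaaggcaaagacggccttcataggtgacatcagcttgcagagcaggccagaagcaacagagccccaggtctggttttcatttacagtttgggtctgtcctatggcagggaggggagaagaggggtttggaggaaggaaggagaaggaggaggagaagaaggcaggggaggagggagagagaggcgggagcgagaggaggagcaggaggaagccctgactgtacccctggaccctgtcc
Col7a1, chr9:108953336-108953585, plus strand: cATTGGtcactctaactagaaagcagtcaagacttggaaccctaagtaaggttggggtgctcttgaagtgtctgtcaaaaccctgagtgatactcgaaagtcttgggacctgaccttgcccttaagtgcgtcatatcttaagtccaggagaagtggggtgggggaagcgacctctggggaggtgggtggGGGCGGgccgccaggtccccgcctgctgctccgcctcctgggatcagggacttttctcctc
Col4a4 to Col4a3, chr1:82586850-82586920, minus strand: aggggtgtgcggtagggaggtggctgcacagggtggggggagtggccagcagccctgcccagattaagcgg

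The 4 windows of 250 bases differ widely in composition. GC content is 35.2% for Col3a1, 76.4% for Col5a1, 57.2% for Col6a3 and 56.4% for Col7a1, beside a median of 52.4% over all RefSeq windows of that length. The Col3a1 window holds TATAAA starting 117 bases before the gene start, the Col5a1 window holds GC boxes starting at 73 and 205 bases, and the Col7a1 window holds ATTGG at 249 and GGGCGG at 61 bases. None of these letters occurs in the Col6a3 window. RefSeq windows were found for 34 of the 43 members. Of these, 21 hold a GC box, 12 a CCAAT box and 4 TATAAA, while over 32841 windows the shares are 32.7%, 33.9% and 12.4%. A member was counted if any of its windows held the motif, whereas the shares are per window, so the measures differ. By class, and among genes with a window, a GC box is in 6 of 8 fibrillar genes, 5 of 8 basement membrane genes, 2 of 5 FACIT genes and 4 of 6 type VI genes. The 71 bases between Col4a4 and Col4a3 have a GC content of 69.0% and lie upstream of both genes. The other type IV genes are paired in the same head-to-head way: Col4a1 and Col4a2 overlap by 22 bases on chromosome 8, and Col4a6 and Col4a5 lie 1308 bases apart on chromosome X.

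The libraries were alike in depth. Totals ran from 20531601 to 24678638 expected counts, with a mean of 22.9 M ± 1.73 in wild type and 23.1 M ± 1.51 in knockout (n = 4 each, SD, exact permutation p = 0.743). Tph1 had 18, 0, 27 and 11 counts in wild type replicates 1 to 4 and 0 in every knockout library. There 3 counts, the most that a count of 0 allows at 95% confidence, correspond to 0.123 to 0.143 CPM (counts scaled to library size). Wild type replicate 2 thus had no Tph1 count either, and the exact permutation p was 0.143. Hair shaft and sheath markers summed to 1409 TPM (a level per gene length and library) in Tph1 knockout replicate 3 and to between 4.48 and 69.5 TPM in the other knockout libraries. Skeletal muscle markers were abundant, summing to 11609 to 72409 TPM in wild type and 45626 to 70659 TPM in knockout. Replicates have no order, and their numbers follow the order of the records. Positions of genes are on build GRCm38.

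Levels within the family ran from a mean of 0.015 TPM for Col10a1 to 126 TPM for Col3a1. The mean TPM over all 8 libraries was above 10 for 16 members, between 1 and 10 for 10 members and lower for 17. Col3a1 (126), Col7a1 (121), Col16a1 (92.8), Col1a2 (80.6) and Col1a1 (63.4) led by mean TPM and together held 57.0% of the family's mean TPM. The top of this order did not separate beyond its spread: Col3a1 was at 172 ± 154 TPM in wild type and 79.7 ± 50.6 in knockout, and Col7a1 at 121 ± 33.4 and 120 ± 19.4 (SD, n = 4 each). The plot of levels by library shows the same order within each class.

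**Figure D1:**
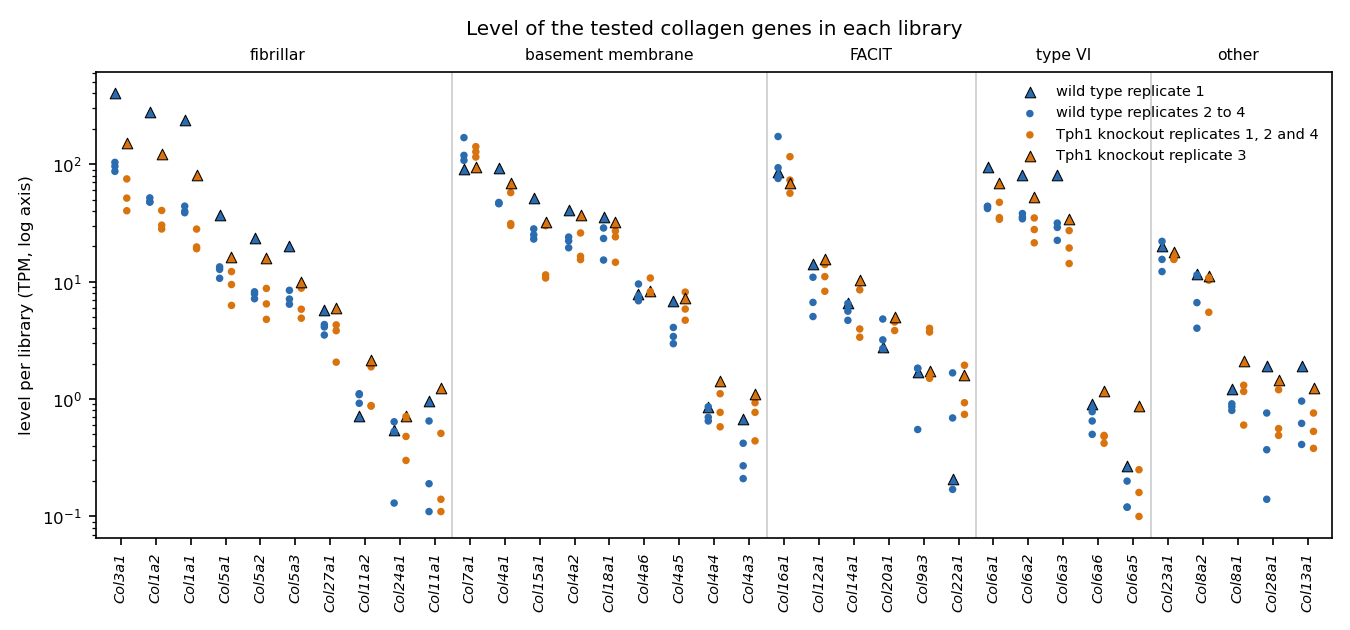
Level of the 35 tested collagen genes in each library (TPM, log axis), grouped by class and ordered by mean level; blue points and triangles are wild-type libraries, orange ones Tph1 knockout libraries, and triangles mark wild type replicate 1 and Tph1 knockout replicate 3. The triangles lie at the top of most fibrillar and type VI genes, and the genotypes overlap in every gene.

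The summed level of all 43 members was 1741, 666, 869 and 702 TPM in wild type replicates 1 to 4 and 538, 772, 987 and 504 TPM in knockout replicates 1 to 4. Wild type replicate 1 stood apart from the other 7 libraries, and the genotypes overlapped. Fibrillar genes summed to 1006, 206, 224 and 226 TPM in wild type and 124, 180, 407 and 112 TPM in knockout, which is 57.8% of the collagen level in wild type replicate 1, 41.2% in knockout replicate 3 and between 22.2% and 32.1% in the other 6 libraries. Basement membrane genes varied much less, at 327, 234, 308 and 239 TPM in wild type and 215, 302, 285 and 212 TPM in knockout. Type VI genes followed the total: they held between 12.8% and 16.03% of the collagen level in every library, at 259, 101.3, 111 and 110 TPM in wild type and 81.8, 110, 158 and 71.6 TPM in knockout. FACIT genes were at 112, 93.9, 196 and 109 TPM in wild type and 94.6, 148, 103 and 79.2 TPM in knockout, highest in a different library, wild type replicate 3. The stacked bars of class sums show that most of the distance between wild type replicate 1 and the other libraries was fibrillar.

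**Figure D2:**
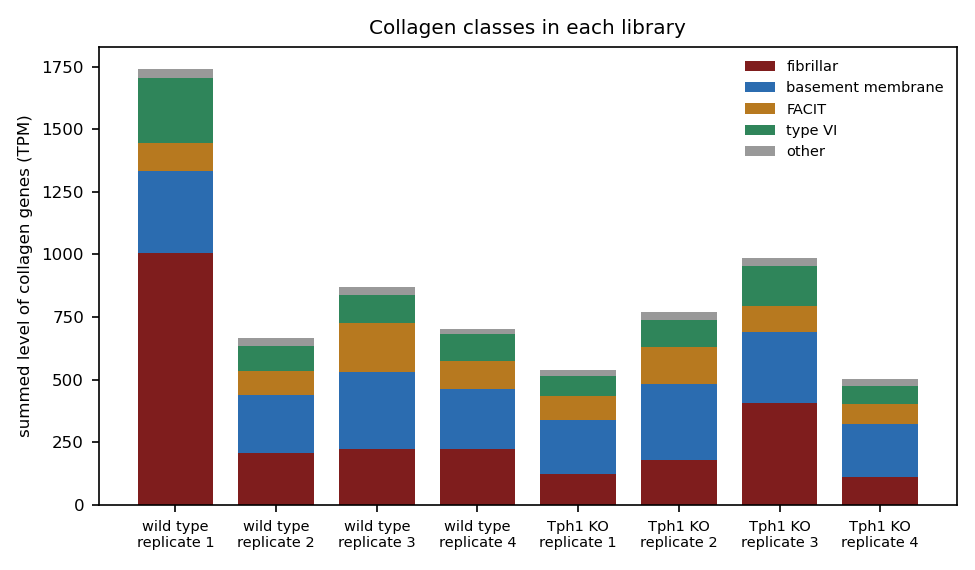
Summed level of collagen genes in each library (TPM), stacked by class, for 4 wild-type and 4 Tph1 knockout libraries. Wild type replicate 1 reaches 1741 TPM, of which 1006 TPM is fibrillar, while the other libraries lie between 504 and 987 TPM.

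The fibrillar genes of the dermis were the members with the largest negative fold changes, and none passed the test. Of 10 tested fibrillar genes 7 were lower and 3 higher in knockout, with a median log2 fold change of -0.41. Col1a1 (ENSMUSG00000001506, chromosome 11 from 94936224 to 94953042), which encodes the alpha1 chain of type I collagen, was at 921, 173, 171 and 215 CPM in wild type and 104, 127, 292 and 82.6 CPM in knockout. Wild type replicate 1 was 4.29 times the next wild-type library, and knockout replicate 3 lay above the other 3 wild-type libraries, so the genotypes overlapped. The log2 fold change of Col1a1 was -1.29 ± 0.62 (SE, adjusted p = 0.311 by edgeR), and -0.30 ± 0.41 without wild type replicate 1 (adjusted p = 0.740). In bulk tissue, fewer cells of a type and less RNA per cell cannot be told apart.

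Col1a2 (ENSMUSG00000029661, chromosome 6 from 4504814 to 4541544), the partner chain of type I collagen, was at 958, 183, 187 and 233 CPM in wild type and 140, 158, 396 and 119 CPM in knockout. It had the same high libraries as Col1a1, with a log2 fold change of -0.94 ± 0.60 (SE, adjusted p = 0.434 by edgeR) that became 0.02 ± 0.41 without wild type replicate 1. Col3a1 (ENSMUSG00000026043, chromosome 1 from 45311538 to 45349706), which forms the type III homotrimer found with type I in skin, was at 889, 229, 240 and 282 CPM in wild type and 161, 198, 352 and 111 CPM in knockout. Its log2 fold change was -1.0 ± 0.50 (SE, adjusted p = 0.327 by edgeR), and -0.29 without wild type replicate 1. Col5a1, whose chain helps to start type I fibrils and sets their diameter, was at 111, 32.0, 40.4 and 43.8 CPM in wild type and 34.4, 33.7, 54.5 and 23.3 CPM in knockout. For these genes as for Col1a1, wild type replicate 1 was the highest of all 8 libraries and knockout replicate 3 the highest of its genotype. The log2 fold change of Col5a1 was -0.64 ± 0.40 (SE, adjusted p = 0.418 by edgeR), and -0.09 without wild type replicate 1.

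The remaining fibrillar genes were lower in level. The other type V genes, Col5a2 and Col5a3, had log2 fold changes of -0.36 and -0.46, and Col27a1, a minor fibrillar gene, of -0.14. Without wild type replicate 1 these were 0.13, -0.05 and 0.00. Col24a1, also a minor fibrillar gene, was at 1.81, 1.29, 0.719 and 2.79 CPM in wild type and 1.94, 2.66, 3.22 and 3.28 CPM in knockout (log2 fold change 0.75 ± 0.40 SE, adjusted p = 0.358 by edgeR). Its highest wild-type value lay above 2 of the 4 knockout values. Col11a1 and Col11a2, chains of the type XI collagen of cartilage, each had a log2 fold change of 0.25. That of Col11a1 was 1.17 without wild type replicate 1 and -0.54 without knockout replicate 3, and that of Col11a2 was 0.00 without knockout replicate 2. Col2a1, the main cartilage collagen, had 39 counts over all 8 libraries and was not tested. Chondrocyte markers summed to at most 1.86 TPM in any library, and Matn3 had no count.

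The fibrillar difference depended on wild type replicate 1 and on Tph1 knockout replicate 3, the libraries with the highest fibrillar level of each genotype. Without wild type replicate 1, 6 of the 10 fibrillar genes were higher and 4 lower in knockout, and their median log2 fold change was 0.01. Without Tph1 knockout replicate 3, in contrast, the median was -0.60, the lowest over the 8 fits that left out 1 library. With both of these libraries left out, an alternative added after the values were seen, it was -0.15. In that fit the log2 fold change was -0.83 for Col1a1, -0.68 for Col3a1 and -0.53 for Col1a2. For Col5a1, Col5a2, Col5a3 and Col27a1 it lay between -0.35 and -0.11. The low-level genes Col11a1, Col11a2 and Col24a1 went the other way, at 0.38, 0.26 and 0.72. No member was called in that fit. The plot of fold changes shows each gene with and without wild type replicate 1.

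**Figure D3:**
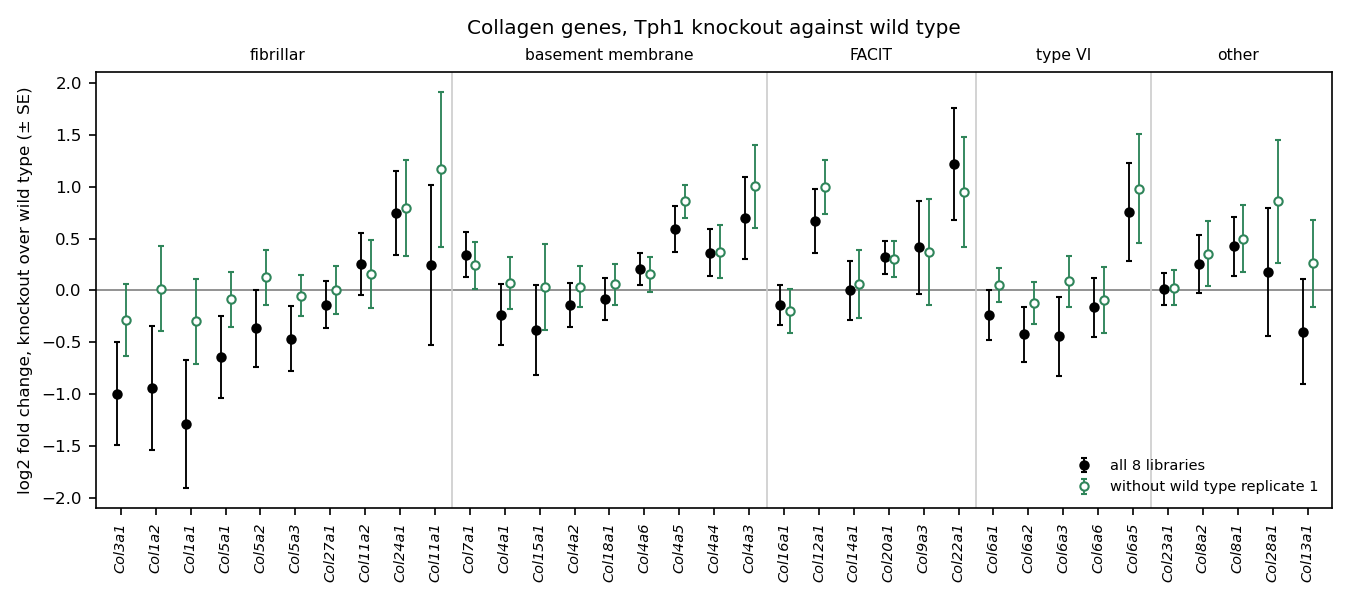
Log2 fold change (Tph1 knockout over wild type, bars ± SE from edgeR) of the 35 tested collagen genes by class, with all 8 libraries (filled) and without wild type replicate 1 (open). The fibrillar and type VI genes with negative values move toward or past 0 without that library, while Col4a5 goes from 0.59 to 0.86 and Col12a1 from 0.67 to 1.0.

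The summed level of fibroblast markers, like that of the fibrillar genes, was highest in wild type replicate 1 and knockout replicate 3 of each genotype. The 9 fibroblast markers (Pdgfra, Dcn, Lum, Dpt, Pi16, Twist2, Clec3b, Lox and Dpep1) summed to 1145, 405, 653 and 548 TPM in wild type and 352, 609, 1117 and 327 TPM in knockout. Of the 9, 7 were highest in wild type replicate 1 among wild-type libraries, against 30.7% of all tested genes. In knockout replicate 3, 5 were highest among knockout libraries, against 29.2% of all tested genes, and none was called. Dpt was highest in wild type replicate 3 and Dpep1 in wild type replicate 4 among wild-type libraries. Dcn had the highest mean level of the 9, at 265 TPM. Knockout replicate 2 had more marker but less fibrillar level than wild type replicate 2. The part of fibroblast content in the collagen values was not tested. Per unit of marker, fibrillar level was 0.879, 0.508, 0.342 and 0.411 in wild type and 0.353, 0.295, 0.364 and 0.341 in knockout. The wild type replicate 1 ratio was again the highest, and the genotypes overlapped at wild type replicate 3. The implied mean fragment length also differed between libraries, at 157 bases in wild type replicate 1 and 163 in knockout replicate 3 against 144 to 154 in the other 6.

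**Figure D4:**
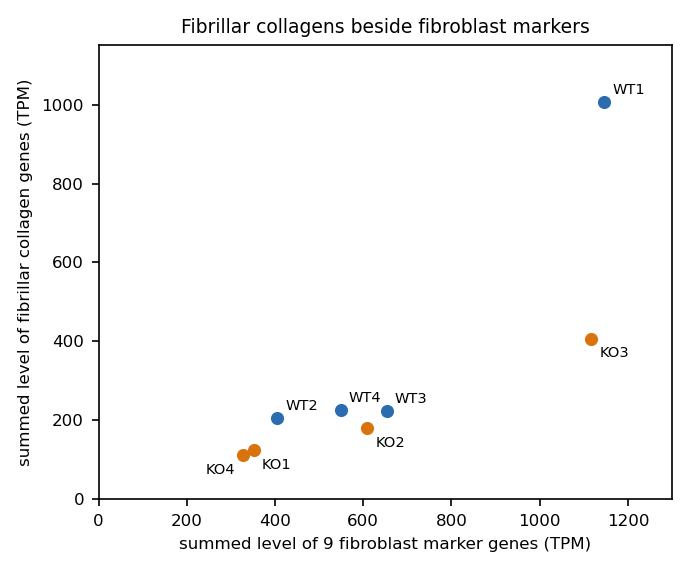
Summed level of fibrillar collagen genes against the summed level of 9 fibroblast marker genes (TPM each) in 4 wild-type (WT, blue) and 4 Tph1 knockout (KO, orange) libraries. Wild type replicate 1 and knockout replicate 3 have similar marker sums (1145 and 1117 TPM) but fibrillar sums of 1006 and 407 TPM.

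A ratio between chains cancels only a change that scales both alike, and 10 were computed from TPM within each library. Some still varied with the fibrillar level. Col5a1 to Col1a1 was lowest of each genotype in wild type replicate 1 (0.156) and knockout replicate 3 (0.203). The ratio of Col1a1 to Col1a2 was 0.857, 0.836, 0.806 and 0.851 in wild type and 0.652, 0.694, 0.659 and 0.679 in knockout. Every knockout library lay below every wild-type library, including wild type replicate 1 and knockout replicate 3 with their high type I levels. The mean was 0.837 ± 0.0225 in wild type and 0.671 ± 0.0191 in knockout (n = 4 each, SD), with a two-sided exact permutation p of 0.0286, the smallest that 70 assignments can give. Adjusted over the 10 ratios (Benjamini-Hochberg), this exact permutation p was 0.214. At least 6 of the 10 ratios would have to reach the smallest exact p for any to pass 0.05, so the adjusted value is limited by the number of libraries. The ratio of expected counts gave the same separation, at 0.961, 0.949, 0.912 and 0.922 in wild type and 0.742, 0.804, 0.739 and 0.692 in knockout. Col1a1 to Col1a2 was the only ratio of the 10 whose genotypes did not overlap. Among single genes, 11.0% of all tested genes did not overlap by CPM, a share that 1 of 10 ratios does not exceed. The measures differ, since that share is per gene by CPM and not per ratio of TPM. How often ratios between other genes separate was not tested.

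The other chain ratios overlapped between genotypes. Col3a1 to Col1a1 was 2.19 ± 0.405 in wild type and 2.32 ± 0.378 in knockout (n = 4 each, SD). Col4a1 to Col4a2, which together make the common type IV trimer, was 2.17 ± 0.187 and 1.98 ± 0.154. Col6a1 to Col6a2 was 1.19 ± 0.0536 and 1.38 ± 0.181 (exact permutation p = 0.0571), and Col6a3 to Col6a1 was 0.697 ± 0.146 and 0.511 ± 0.0791. From its lowest to its highest library the Col4a1 to Col4a2 ratio varied 1.28-fold. The low-level pair Col4a3 and Col4a4 varied more, at 0.513 ± 0.245 and 0.942 ± 0.506. The ratio of the junction gene Col7a1 to the dermal gene Col3a1 ran from 0.225 in wild type replicate 1 to 2.87 in knockout replicate 4.

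**Figure D5:**
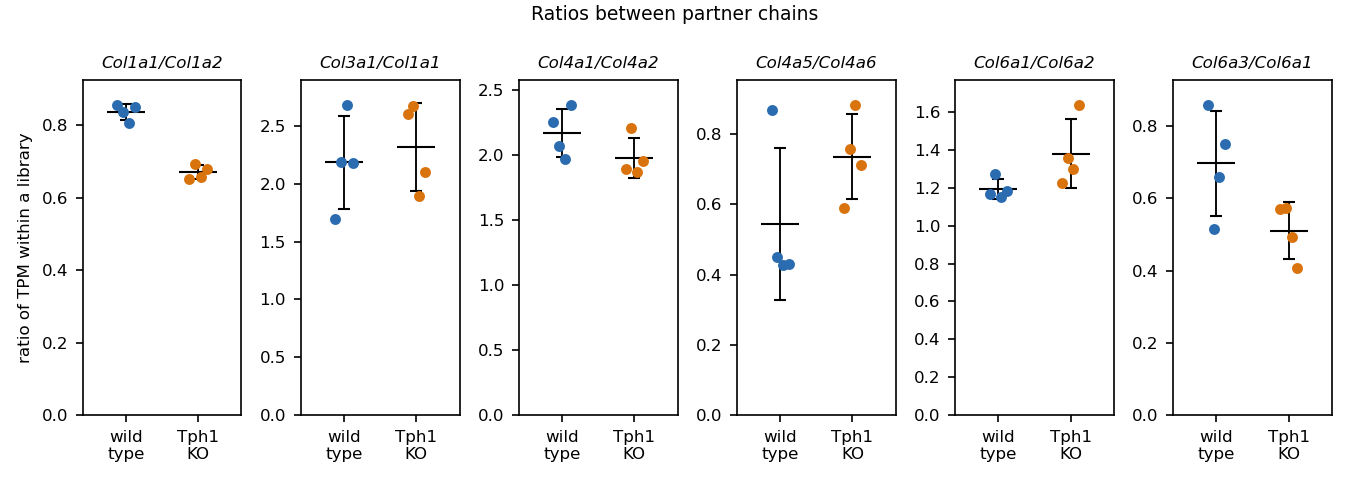
Ratio of TPM within each library for 6 pairs of collagen chains in wild type (blue) and Tph1 knockout (orange), with the mean and SD of 4 libraries. Only Col1a1/Col1a2 separates the genotypes, with wild type from 0.806 to 0.857 and knockout from 0.652 to 0.694.

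Basement membrane genes showed no common direction, with 5 of 9 higher and 4 lower in knockout and a median log2 fold change of 0.21. Col7a1 (ENSMUSG00000025650, chromosome 9 from 108953586 to 108984875), the anchoring fibril collagen of the dermal-epidermal junction, was at 206, 229, 342 and 271 CPM in wild type and 377, 378, 227 and 348 CPM in knockout. Knockout replicate 3 was low and lay among the wild-type libraries, while the other 3 knockout libraries lay above all wild-type ones. The log2 fold change of Col7a1 was 0.34 ± 0.22 (SE, adjusted p = 0.430 by edgeR), and 0.06 when effective gene lengths entered the fit. Unlike the dermal fibrillar genes, Col7a1 was lowest of each genotype in the libraries where those were highest, wild type replicate 1 and knockout replicate 3.

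Among type IV genes, Col4a1 and Col4a2 encode the chains present in nearly all basement membranes. Col4a1 was at 271, 142, 140 and 136 CPM in wild type and 118, 164, 209 and 95.8 CPM in knockout. The other wild-type libraries were almost level, and wild type replicate 1 was 1.91 times the next. Col4a2 was at 166, 108, 114 and 107 CPM in wild type and 95.8, 128, 144 and 82.0 CPM in knockout. The log2 fold changes were -0.23 ± 0.30 for Col4a1 and -0.14 ± 0.21 for Col4a2 (SE, adjusted p = 0.707 and 0.765 by edgeR), and 0.07 and 0.04 without wild type replicate 1.

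Col4a5 (ENSMUSG00000031274, chromosome X from 141475385 to 141689234), a chain of the type IV trimers of epithelial basement membranes, had the smallest p of the family. It was at 22.4, 12.6, 13.8 and 11.0 CPM in wild type and 19.2, 26.2, 23.9 and 20.9 CPM in knockout. All 4 knockout libraries lay above wild type replicates 2 to 4, and wild type replicate 1 lay within the knockout range. The log2 fold change was 0.59 ± 0.22 (SE, unadjusted p = 0.0245 and adjusted p = 0.220 by edgeR). Without wild type replicate 1 it was 0.86 ± 0.16 with an adjusted p of 0.0843 by edgeR, the lowest of any member in any of the alternatives. Col4a6, its neighbour and partner chain in the skin, was at 35.4, 37.9, 47.5 and 38.0 CPM in wild type and 48.4, 55.4, 34.9 and 44.7 CPM in knockout (log2 fold change 0.21 ± 0.16 SE, adjusted p = 0.512 by edgeR). The Col4a5 to Col4a6 ratio was 0.451, 0.427 and 0.431 in wild type replicates 2 to 4, but 0.868 in wild type replicate 1, within the knockout range of 0.591 to 0.884.

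Col4a3 and Col4a4, the chains that join Col4a5 in specialised membranes such as the kidney glomerulus, were both at or below 1.43 TPM in every library. Col4a3 was at 3.93, 2.71, 1.39 and 1.98 CPM in wild type and 2.45, 2.96, 6.06 and 4.87 CPM in knockout. Knockout replicates 3 and 4 exceeded all wild-type libraries, and replicates 1 and 2 did not (log2 fold change 0.70 ± 0.39 SE, adjusted p = 0.376 by edgeR). Col4a4 had a log2 fold change of 0.36 ± 0.23 (SE, adjusted p = 0.420 by edgeR). Over the 6 type IV genes alone the median log2 fold change was 0.29, with 4 higher and 2 lower.

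Col15a1 and Col18a1 encode multiplexin collagens of the basement membrane zone. Col15a1 was at 93.5, 34.2, 38.4 and 47.7 CPM in wild type and 22.0, 52.0, 68.0 and 22.1 CPM in knockout. Its knockout libraries fell into 2 high and 2 low, on both sides of wild type replicates 2 to 4 (log2 fold change -0.38 ± 0.43 SE, adjusted p = 0.666 by edgeR). Adipocyte marker sums were split among the knockout libraries in the same way. They were 2496 and 2387 TPM in replicates 2 and 3, and 819 and 588 TPM in replicates 1 and 4. So were fibroblast sums (609 and 1117 against 352 and 327 TPM) and endothelial sums (135 and 161 against 96.5 and 93.8 TPM), among others. Keratinocyte, muscle, Schwann and macrophage sums were not. In wild type, Col15a1 and the fibroblast and endothelial sums were highest in replicate 1. The adipocyte sum there ran from 1624 to 3067 TPM and was highest in replicate 3. All 6 adipocyte markers had negative log2 fold changes, with a median of -0.53 and none called. The part of these cell types in the Col15a1 values was not tested. Col18a1 had a log2 fold change of -0.08. Without wild type replicate 1 all 9 basement membrane genes had log2 fold changes above 0, with a median of 0.16.

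Of 6 tested FACIT genes, 5 were higher and 1 lower in knockout, with a median log2 fold change of 0.37, and none passed the test. Col16a1, found in the papillary dermis near the junction, was the most abundant, at 124, 118, 194 and 127 CPM in wild type and 127, 161, 109 and 114 CPM in knockout. Wild type replicate 3 was high and the other 7 libraries ran from 109 to 161 CPM (log2 fold change -0.14 ± 0.19 SE, adjusted p = 0.728 by edgeR). Col12a1 (ENSMUSG00000032332, chromosome 9 from 79598991 to 79718831), a tension-responsive collagen of dense connective tissue, was at 44.1, 23.1, 27.1 and 14.9 CPM in wild type and 28.8, 42.6, 54.3 and 47.7 CPM in knockout. Every knockout library lay above wild type replicates 2 to 4, with wild type replicate 1 again inside the knockout range. Its log2 fold change was 0.67 ± 0.31 (SE, adjusted p = 0.299 by edgeR), and 1.0 ± 0.26 without wild type replicate 1 (adjusted p = 0.158). In Col4a5, too, only wild type replicate 1 of the wild-type libraries lay inside the knockout range. The order of the knockout libraries differed, with replicate 3 highest for Col12a1 and replicate 2 for Col4a5.

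Col14a1, a FACIT of the fibril surface, averaged 17.1 ± 4.02 CPM (SD, n = 4) over wild-type libraries and 17.2 ± 6.73 over knockout libraries, a log2 fold change of 0.00 ± 0.29 SE. Col20a1, a less studied FACIT gene, was at 8.32, 9.29, 7.64 and 9.36 CPM in wild type and 11.8, 11.7, 9.24 and 10.4 CPM in knockout. Only knockout replicate 3 fell within the wild-type range (log2 fold change 0.32 ± 0.16 SE, adjusted p = 0.322 by edgeR). Col22a1 (ENSMUSG00000079022, chromosome 15 from 71795795 to 72034227), known from tissue junctions such as those of muscle and tendon, had the largest positive fold change of the tested members. It was at 1.13, 4.58, 0.944 and 4.95 CPM in wild type and 5.46, 4.37, 8.54 and 8.65 CPM in knockout. The wild-type libraries fell into 2 low and 2 high, the latter overlapping the knockout range (log2 fold change 1.22 ± 0.54 SE, unadjusted p = 0.0472 and adjusted p = 0.275 by edgeR). Muscle marker sums differed between these wild-type libraries too, at 32281 and 11609 TPM in replicates 1 and 3 and 72409 and 54914 TPM in replicates 2 and 4. In knockout they were 67098, 45626, 47512 and 70659 TPM. Knockout replicate 3 had more Col22a1 than replicate 1 at a lower muscle sum. The highest muscle sum, in wild type replicate 2, came with 4.58 CPM of Col22a1. The part of muscle content in the Col22a1 values was not tested.

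The type VI genes varied together with the fibrillar genes. Col6a1, Col6a2 and Col6a3 encode the chains of the main type VI monomer. Col6a1 was at 258, 133, 132 and 146 CPM in wild type and 126, 148, 177 and 117 CPM in knockout. Col6a2 was at 220, 103, 113 and 122 CPM in wild type and 101.4, 108, 136 and 71.0 CPM in knockout. Col6a3 (ENSMUSG00000048126, chromosome 1 from 90765923 to 90843971) was at 192, 58.6, 65.9 and 82.3 CPM in wild type and 70.2, 65.6, 107 and 50.2 CPM in knockout. In each of these genes wild type replicate 1 was the highest of 8 libraries, knockout replicate 3 the highest and knockout replicate 4 the lowest of its genotype. The log2 fold changes were -0.24 ± 0.24, -0.42 ± 0.27 and -0.44 ± 0.38 (SE), with edgeR adjusted p of 0.628, 0.431 and 0.562. Without wild type replicate 1 they were 0.05, -0.12 and 0.09, and the class median went from -0.24 to 0.05. With knockout replicate 3 also left out, the class median was -0.15.

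The alternative chains of type VI were low. Col6a6 averaged 4.71 ± 0.939 CPM (SD, n = 4) over wild-type libraries and 4.21 ± 1.55 over knockout libraries. Col6a5 was at 1.47, 0.80, 0.854 and 0.990 CPM in wild type and 0.879, 1.17, 3.53 and 1.41 CPM in knockout, with a log2 fold change of 0.76 ± 0.48 (SE, adjusted p = 0.427 by edgeR). Knockout replicate 3 alone set that value apart, and without it the log2 fold change was 0.16. Across the whole family wild type replicate 1 was the highest wild-type library in 23 of 35 members (65.7%, against 30.7% of all tested genes), and knockout replicate 3 the highest knockout library in 22 of 35 (62.9%, against 29.2%). All 5 tested type VI genes were among them for both libraries, but of the 6 FACIT genes only 1 and 2 were.

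Of the other collagens, the transmembrane collagen gene Col23a1 was the most abundant, averaging 71.6 ± 14.7 CPM (SD, n = 4) over wild-type libraries and 72.1 ± 6.63 over knockout libraries (log2 fold change 0.01 ± 0.15 SE). Col8a2 and Col8a1 encode the short-chain type VIII collagen of vessels and the cornea, and had log2 fold changes of 0.25 ± 0.28 and 0.43 ± 0.29 (SE). Col28a1, known from peripheral nerve, was at 4.76, 2.40, 0.449 and 1.35 CPM in wild type and 1.25, 1.83, 3.88 and 3.23 CPM in knockout. The wild-type values alone spanned the knockout range (log2 fold change 0.18 ± 0.62 SE). The transmembrane collagen gene Col13a1 was at 3.55 CPM in wild type replicate 1 and between 0.865 and 1.87 CPM in the 7 other libraries (log2 fold change -0.40 ± 0.51 SE). None of these differences exceeded the spread between libraries, with edgeR adjusted p of 0.461 or more.

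The 8 members that were not tested had between 6 and 59 counts over all libraries: Col9a1, Col9a2, Col19a1, Col2a1, Col26a1, Col25a1, Col10a1 and Col6a4. Several are known from cartilage, growth plate or nervous tissue. Col19a1 is named after its values were seen, since it had no count in any wild-type library and 26 counts over the 4 knockout libraries, from 1 to 15 each. Per library size this was 8.59 times the 3 counts that a count of 0 allows at 95% confidence over the wild-type group. Without knockout replicate 2, which held 15 of the 26 counts, it was 4.86 times. Both values take the knockout counts as exact. Fitted with no filter on low counts, Col19a1 had an edgeR adjusted p of 0.154. The counts come from few reads, and the interval of 3 counts covers counting error only.

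Genes that act on collagens were read from the same fit, and none of the 91 tested genes on 6 lists was called. Among 21 folding and hydroxylation genes, 10 were higher and 11 lower with a median log2 fold change of -0.03. P3h4, whose product works with lysyl hydroxylase in the endoplasmic reticulum, was at 28.8, 28.9, 28.6 and 23.5 CPM in wild type and 16.8, 20.6, 19.5 and 18.3 CPM in knockout. The genotypes did not overlap, as in 11.0% of all tested genes, and the log2 fold change was -0.55 ± 0.12 (SE, adjusted p = 0.0879 by edgeR). Ppib and Crtap, members of the prolyl 3-hydroxylation complex, had log2 fold changes of -0.39 and -0.37 (adjusted p = 0.137 and 0.166 by edgeR). With the DESeq2 Wald test P3h4 and Ppib passed, at adjusted p of 0.00441 and 0.0162, where 5.95% of all genes did. Both were named for the smallest edgeR p of their list, so these calls are no separate support. P3h4, Ppib and Crtap did not have the high value in wild type replicate 1 that the fibrillar genes had.

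Of 12 tested genes for propeptide cleavage and cross-linking, 9 were lower and 3 higher (median -0.13), and of 15 fibril partners 10 were lower and 5 higher (median -0.16). Loxl1, a lysyl oxidase of elastic fibres, had a log2 fold change of -0.66 ± 0.23 (SE, adjusted p = 0.202 by edgeR), its relative Loxl2 of -0.65, and the propeptide protease gene Tll1 of 0.63. Of the fibril partners, Dpt was at -0.40, Sparc, a collagen-binding secreted protein gene, at -0.42, and Tnxb, which encodes tenascin X, at 0.37. Wild type replicate 1 was the highest wild-type library for 11 of the 12 and for 11 of the 15 genes of these lists, against 30.7% of all tested genes. Dcn, Lum, Dpt and Lox are also among the fibroblast markers. Without wild type replicate 1 the medians were 0.09 and 0.04.

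Among 19 basement membrane partners, 7 were higher and 12 lower (median -0.03). Lama3, the laminin chain of the epidermal junction, was at 59.8, 60.6, 62.6 and 49.1 CPM in wild type and 79.3, 85.0, 72.5 and 84.1 CPM in knockout. All knockout libraries lay above all wild-type ones, with a log2 fold change of 0.47 ± 0.12 (SE, adjusted p = 0.104 by edgeR and 0.0197 by DESeq2). Of all tested genes 11.0% did not overlap and DESeq2 called 5.95%, and Lama3 was named for the smallest edgeR p of its list. Agrn, a basement membrane proteoglycan gene, and Lama5, another epithelial laminin chain, had log2 fold changes of 0.46 and 0.40 (adjusted p = 0.204 and 0.194 by edgeR). With effective gene lengths in the fit the value of Lama5 was -0.29.

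Of 13 tested collagen receptor genes, 7 were higher and 6 lower with a median of 0.00. Ddr2, a receptor kinase for fibrillar collagen, had a log2 fold change of -0.60 ± 0.23 (SE, adjusted p = 0.225 by edgeR), Cd44 of -0.60 and the integrin gene Itga2 of 0.30. Of 11 tested genes of collagen degradation and its inhibition, 10 were lower and 1 higher in knockout, with a median log2 fold change of -0.46 that ran from -0.56 to -0.31 when 1 library was left out. Mmp14, a membrane-bound collagenase, was at -0.54, the cathepsin gene Ctsl at -0.46 and Pepd, which splits proline dipeptides, at -0.43 (adjusted p = 0.221, 0.196 and 0.206 by edgeR). Macrophage markers also had negative log2 fold changes, 6 of 6 with a median of -0.52 and none called, and their part in these values was not tested. Immediate early genes, known to respond to handling of tissue, were lower in 10 of 10 cases with Nr4a1 called (log2 fold change -2.18, adjusted p = 0.0324 by edgeR), and keratinocyte markers were lower in 6 of 6, with the cornified envelope gene Lor called (-1.47, adjusted p = 0.0379 by edgeR). Leaving out 1 library in turn, Nr4a1 kept its call in 2 of 8 fits and Lor in 1 of 8. Their part in the collagen values was not tested.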

How the data were processed

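Total RNA from dorsal skin was made into libraries with the NEBNext Ultra RNA kit, per the labels' protocols. Per the submitters' processing notes, STAR 2.7.6a, RSEM 1.31, DESeq2 and DESeq were used on build GRCm38, with no role stated. The deposited expected counts, RSEM estimates that divide reads shared between genes, are not normalized, and 10.7% to 11.5% of genes per library had values that are not whole. The deposited TPM values, per the file headers, scale those counts to effective length and library size, and were used to compare levels between genes. Deposited effective lengths, per the file headers, were used as an offset in 1 alternative fit. The authors' deposited normalized signal matrix of 17382 genes was used only for gene symbols. It gave 35 of the 43 member symbols, and a reference name table gave the other 8. Coordinates are from GENCODE M21 on GRCm38.

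Rounded expected counts of at least 10, with a total of at least 15, by edgeR's filterByExpr were scaled by TMM and compared by genotype in edgeR 4.0.16 under R 4.3.3 (robust quasi-likelihood F test, genotype as the only term, all 8 libraries, Benjamini-Hochberg over 16908 genes of the 29559 with a count). CPM is per TMM-scaled library size, and SE is the fold change over the square root of F. limma 3.58.1 and DESeq2 1.42.0 served as alternatives. The script was tested on simulated counts. The members and gene lists were chosen with earlier results of these data known. Lists are described by counts and medians, with no test. The genes named were, in each class, the 4 members with the highest TPM and the largest rise and fall, the 6 members with the smallest p, the partner chains of types I, IV and VI, and 3 genes with the smallest p per pathway list. Promoters are from RefSeq on GRCm38.p6. Not analysed here is any sequence of the encoded proteins.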

Additional observations from a re-analysis of the deposited data

Results flagged for a closer look

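In a search of 102 groups of 4 libraries (each genotype in the 35 tested members, class sums and chain ratios), 17 had 1 library far from the other 3 by Dixon's criterion. For normal values that criterion marks about 1 in 20 independent groups by chance. These groups share libraries and genes, so their number cannot be set against that rate. Wild type replicate 1 was the far library, on the high side, in 13 of the 17. These were Col1a1 (921 CPM), Col1a2 (958 CPM), Col3a1 (889 CPM), Col5a1 (111 CPM), Col5a2 (102 CPM), Col4a1 (271 CPM), Col4a2 (166 CPM), Col6a1 (258 CPM), Col6a2 (220 CPM), Col13a1 (3.55 CPM), the summed fibrillar level (1006 TPM), the summed type VI level (259 TPM) and the Col4a5/Col4a6 ratio (0.868). Wild type replicate 3 was far above its group in Col16a1 (194 CPM). Tph1 knockout replicate 3 was far above its group in Col1a2 (396 CPM) and Col6a6 (6.54 CPM), and Tph1 knockout replicate 2 in Col11a2 (4.50 CPM).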

How the results depend on the processing

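No member was called under any of the 16 alternatives. DESeq2 gave adjusted p-values for 33 of the 35 members, with none called and 4 at an unadjusted p under 0.05, and gave none for Col1a1 and Col1a2; limma voom called none, with 3 at an unadjusted p under 0.05. Over all genes, DESeq2 called 984 genes where edgeR called 110 and limma voom 99. The count was 167 without wild type replicate 2 and knockout replicate 3, 70 without wild type replicate 1 and knockout replicate 3, and 8 to 170 when 1 library was left out. The FACIT median was 0.48 with effective lengths, 0.48 without wild type replicate 1 and knockout replicate 3, and 0.20 to 0.47 when 1 library was left out. Leaving out 1 library, the wild-type mean of Tph1 ran from 0.392 to 0.796 CPM, the latter without wild type replicate 2 (exact permutation p = 0.0286, the smallest that 3 against 4 libraries can give).

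Of the 35 tested members, 19 kept their direction throughout. Leaving out 1 library turned Col1a2 (-1.49 to 0.0171), Col4a1 (-0.45 to 0.0718), Col4a2 (-0.28 to 0.0353), Col15a1 (-0.74 to 0.0331), Col16a1 (-0.27 to 0.0513), Col6a1 (-0.36 to 0.0518), Col6a3 (-0.69 to 0.0892), Col13a1 (-0.63 to 0.26), Col28a1 (-0.16 to 0.86), Col14a1 (-0.20 to 0.16), Col23a1 (-0.0933 to 0.15), Col5a2 (-0.65 to 0.13), Col18a1 (-0.23 to 0.0591), Col27a1 (-0.28 to 0.0161), Col11a1 (-0.54 to 1.17) and Col11a2 (-0.00411 to 0.35), all on the log2 scale. Col14a1 was -0.00992 with RLE scaling, -0.0101 with DESeq2 and -0.0470 with limma voom. Col23a1 was -0.00111 with RLE scaling, -0.00112 with DESeq2 and -0.000962 with effective lengths. Without wild type replicate 2 and knockout replicate 3, Col14a1 was -0.35, Col23a1 -0.0104, Col28a1 -0.0831 and Col11a1 -0.65, and without wild type replicate 1 and knockout replicate 3, Col14a1 was -0.14, Col13a1 0.0281 and Col18a1 0.0187. Lama5 was -0.29 with effective lengths. Except where fewer libraries entered, the cause was not tested. No paired analysis was possible because the labels carry no shared replicate numbers. The limit of 3 counts for a count of 0 covers counting error only, while SE and SD include the spread between libraries. Having 4 libraries per genotype limits what could be called.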
